A study of Gallus gallus with 33 samples.

Results

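The response of the AP1 transcription factor genes FOSB, JUN and JUNB to a laser wound was read from microarrays of cultured chick utricle sensory epithelia, the hair cell and supporting cell sheet of a balance organ of the inner ear. The 3 genes were found by their gene identifiers on the array, 3 of the 1516 probes analysed, and each was spotted in duplicate on every array. Lesioned cultures were harvested at 4 times after linear wounds had been cut with a pulsed laser microbeam (30 min, then 1 hr, then 2 hr, then 3 hr), and unlesioned cultures taken out of the incubator alongside them and harvested at the same times were the controls. All cultures came from White Leghorn chicks in the second or the third week after hatching, with no genetic change, and both arms had been isolated with thermolysin and grown on fibronectin, with equal numbers of cultures pooled per biological sample. RNA of both arms was amplified through 2 rounds and transcribed in vitro before it was labelled with Cy3 or Cy5 and hybridized together. In all 33 arrays were hybridized, with 2 biological samples for every time except 3 hr, which had 3, or 9 samples together. Values are log2 ratios of laser over control unless they are called signals, so a value above 0 is a higher level in lesioned epithelia.

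AP1 is a pair of basic leucine zipper proteins that binds DNA as a dimer. Proteins of the JUN family can pair with each other or with proteins of the FOS family, whereas FOS family proteins need a JUN partner to bind. Several of their genes are immediate early genes, transcribed soon after growth factors, stress or wounding without new protein synthesis, and the dimers act in proliferation, cell death and migration of wounded epithelia. The early times of this series address signalling soon after epithelial injury.

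The arrays carried human oligonucleotides, used across species on chick RNA, and a probe reports on the chicken gene only as far as it binds it. The symbols FOSB and JUNB had no match in the chicken gene table used for names, whereas JUN had one. Which chicken transcripts the probes bound was not tested. In 4 of the 9 samples (1 hr replicate 2, 2 hr replicate 2, 3 hr replicate 2 and 3 hr replicate 3) the ratios of arrays with laser RNA in Cy3 ran against those with laser RNA in Cy5, with correlations over the 371 probes between -0.80 and -0.37, and a direction was taken as not settled below a limit of -0.3. In 30 min replicate 2 the orientations bore no relation either (r = -0.039), and in the other 4 samples r lay between 0.24 and 0.80. On 2 arrays, of 2 hr replicate 2 and 3 hr replicate 2, the dyes in file name and header disagreed and the header was followed. The SD of the ratios over probes was 1.04 in 3 hr replicate 1, against 0.16 to 0.40 in the other 8 samples, and its 6 arrays were all brighter in the laser than in the control channel. Of listed markers on the array, 0 of 4 for hair cells passed the filter on dim probes, which 24.5% of all probes passed. For supporting and other sensory cells it was 4 of 10 (with SOX2), for stroma 1 of 5 and for other cells 2 of 6. These few markers do not tell which cell types were present. In these bulk samples, fewer cells of a type and less RNA per cell cannot be told apart.

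All 3 genes passed the filter on dim probes, which asks for more than 1000 scanner units in the laser or control channel of 50% or more of the arrays, as did 371 of 1516 probes (24.5%). JUNB, a JUN family member that is the weaker activator of AP1 sites in mammals, gave a signal above 1000 in both channels on 25 of 33 arrays (75.8%). Its signal lay above the local background on every array in both channels. JUN, the founding member of the family and the target of the JNK kinases, gave both channels above 1000 on 8 of 33 arrays (24.2%) and lay below the local background on 6 arrays in the laser channel and on 5 in the control channel. FOSB, a FOS family protein that needs a JUN partner, gave both above 1000 on 11 of 33 arrays (33.3%) and lay below background on 6 arrays in the laser channel and on 7 in the control channel. JUN and FOSB were thus above this level in both RNAs on fewer arrays than JUNB. Against another limit, the local background plus 2 SD, JUNB was above it in both channels on 97.0% of arrays, FOSB on 60.6% and JUN on 54.5%.

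By time point, FOSB was above 1000 in both channels on 1 of 5 arrays at 30 min, on 0 of 6 at 1 hr, on 3 of 8 arrays at 2 hr and on 7 of the 14 arrays at 3 hr. JUN was so on 2 of 5, 0 of 6, 2 of 8 and 4 of 14 arrays at the same times. JUNB was so on 5 of 5, 3 of 6, 7 of 8 and 10 of 14 arrays. At 1 hr, neither FOSB nor JUN was above 1000 in both channels on any array. The scanner gain, given in the image names of 30 arrays, ran between 5 and 50, so these shares depend on the scan as well as on the RNA.

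The FOSB signal, as a geometric mean over the arrays of a sample, in lesioned epithelia was 1038 and 1219 for the 30 min samples, 845 and 345 for the 1 hr samples, 442 and 908 for the 2 hr samples and 18133, 354 and 1095 for the 3 hr samples. In control epithelia it was 632 and 910, then 528 and 607, then 790 and 1092, and for the 3 hr samples 1304, 349 and 898. A single sample, 3 hr replicate 1, held the high laser value. At 30 min both laser signals lay above both control signals before normalization, and the share of all probes that did so was not counted. Divided by the median of the same channel on its array, the FOSB signal was lower in laser than in control in both 30 min samples. On the log2 scale these levels were 0.39 against 0.43 in replicate 1 and 0.15 against 0.20 in replicate 2. The JUN signal in lesioned epithelia was 801 and 1784 for the 30 min samples, 497 and 560 for the 1 hr samples, 344 and 1147 for the 2 hr samples and 382, 580 and 1608 for the 3 hr samples. In control epithelia it was 510 and 1306, then 360 and 1347, then 567 and 1359, and for the 3 hr samples 351, 626 and 1384. The laser and control signals of JUN overlapped at each time, and both were above 1000 in 30 min replicate 2, 2 hr replicate 2 and 3 hr replicate 3. The JUNB signal in lesioned epithelia was 8389 and 1898 for the 30 min samples, 2827 and 4821 for the 1 hr samples, 2311 and 3338 for the 2 hr samples and 12726, 5190 and 3932 for the 3 hr samples. In control epithelia it was 5397 and 2181, then 1569 and 10040, then 4912 and 4667, and for the 3 hr samples 3123, 4345 and 3903. JUNB was clearly above background in both RNAs at all 4 times, and the ranges of both channels overlapped except at 2 hr, where both laser signals were below both control signals before normalization. The share of all probes that did so was not counted. Divided by the median of the same channel on the array, the 2 hr ranges overlapped. On the log2 scale these JUNB levels were 2.99 and 2.07 in lesioned and 3.45 and 2.54 in control epithelia.

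**Figure D1:**
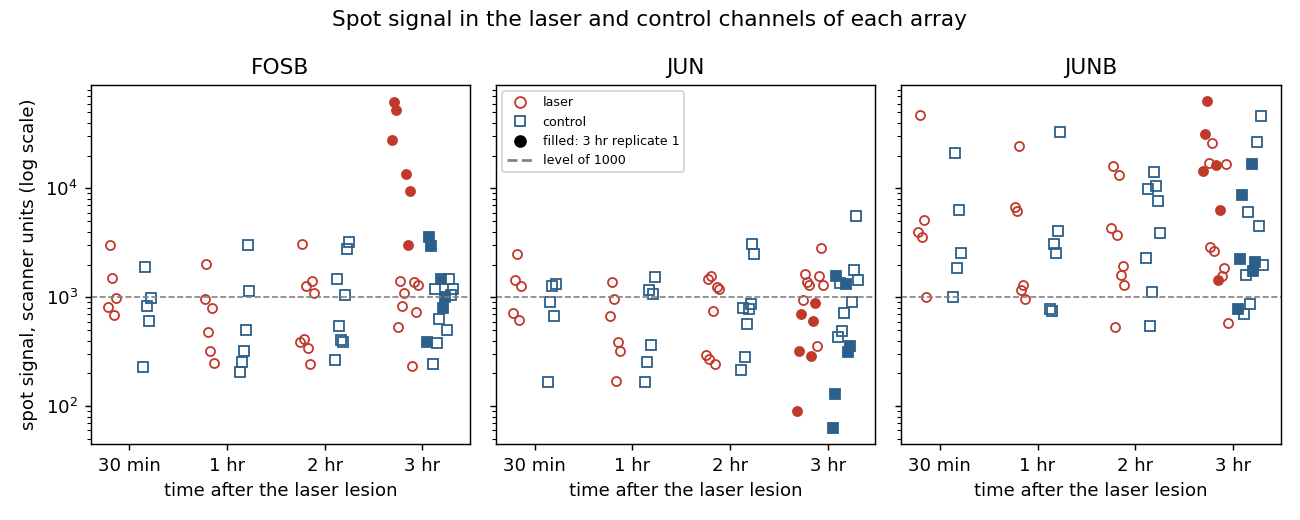
Spot signal of FOSB, JUN and JUNB (scanner units, log axis) on each of the 33 arrays by time after the lesion, with the laser channel (red circles) left of the control channel (blue squares) and filled symbols for 3 hr replicate 1. The dashed line is the level of 1000. JUNB lay mostly above it in both channels, JUN and FOSB lay around it, and 5 of the 6 FOSB laser signals of 3 hr replicate 1, at 9423 to 62509, lay above every other FOSB signal, while the lowest of the 6 was 3042.

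To set the level of each gene across times, its signal was divided by the median of the same channel on its array (the array median). This scales out the brightness of a scan but does not remove the background. The FOSB level (log2 over the array median, mean ± SD of the samples) in lesioned epithelia, in order of time, was 0.27 ± 0.16, 0.68 ± 0.10, 0.40 ± 0.30 and 1.80 ± 2.53 (n = 2, 2, 2 and 3). In control epithelia it was 0.32 ± 0.16, 0.47 ± 0.065, 0.63 ± 0.26 and 0.91 ± 1.00. The 3 hr means of FOSB were the highest in both arms through 3 hr replicate 1 alone. Without it the 3 hr mean was 0.34 in lesioned and 0.33 in control epithelia, below the 1 hr and 2 hr means of both arms. With the FOSB levels of an arm sorted by size, no neighbours differed by more than the larger of their SDs. In time order, the lesioned level rose by more than either SD from 30 min (0.15 and 0.39) to 1 hr (0.61 and 0.75). That step was not tested. In 1 hr replicate 2 the FOSB laser signal was below its local background on both arrays, at 0.40 and 0.65 of it. With laser RNA in Cy5 it was also below it in 30 min replicate 1, at 0.75. The 1 hr minus 30 min difference of the laser over control ratio of FOSB was -0.26 (limma adjusted p 0.994). The JUN level in lesioned epithelia was 0.36 ± 0.49, 0.64 ± 0.93, 0.38 ± 0.20 and 0.37 ± 1.05 over the same times. In control epithelia it was 0.42 ± 0.43, 0.77 ± 1.27, 0.55 ± 0.30 and 0.76 ± 0.52, and neighbours in the order of JUN levels also lay within their spread. The JUNB level in lesioned epithelia was 2.10 ± 1.84, 3.45 ± 1.36, 2.53 ± 0.66 and 3.54 ± 1.16, against 2.49 ± 1.46, 3.28 ± 1.82, 3.00 ± 0.65 and 3.25 ± 0.72 in control epithelia. For JUNB, too, neighbouring times in the order lay within their SDs.

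FOSB was on average somewhat higher in lesioned epithelia, above 0 in 6 of 9 samples, but by less than the test could separate from 0. Its log2 ratios were 0.48 and 0.15 in the 30 min samples, 0.32 and -0.22 in the 1 hr samples, -0.032 and -0.051 in the 2 hr samples and 0.77, 0.067 and 0.31 in the 3 hr samples. FOSB was above 0 in all samples at 30 min and at 3 hr, below 0 in both at 2 hr, and split at 1 hr. At 3 hr the mean was 0.38 (SE 0.17), a fold of 1.30 with 95% limits of -0.022 to 0.79 on the log2 scale and a limma adjusted p of 0.654. At 30 min it was 0.31 (SE 0.21, limma adjusted p 0.989), at 1 hr 0.052 (SE 0.21, adjusted p 0.996) and at 2 hr -0.042 (SE 0.21, adjusted p 0.994). Without background correction the 30 min mean was -0.034, and with the deposited ratios it was -0.045. The FOSB signal of 3 hr replicate 2 lay at 0.19 to 0.40 of the local background in both channels of both arrays. In 30 min replicate 1 it was below background in both channels of the array with laser RNA in Cy5. Averaged over the 4 time points, FOSB stood at 0.18 (SE 0.10, limma adjusted p 0.843), with 95% limits of -0.060 to 0.41. Of all 371 probes, 14.3% were above 0 in both samples at 30 min, 10.5% in all 3 samples at 3 hr, and 31% in at least 6 of 9 samples.

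The FOSB call at 3 hr turned on what counts as a replicate. With the 33 arrays as units and the biological sample as a random block, its 3 hr mean was 0.47 and the limma adjusted p 0.0229, and 43 probes passed at that time. The block was fitted to Cy5 over Cy3 ratios, so it took up a dye offset of a sample and not a laser effect particular to it. That p thus counted arrays of 1 sample as replicates of the laser effect. Of the 14 arrays at that time, 6 were hybridized with RNA of replicate 1, and arrays of 1 sample share their RNA. Without 3 hr replicate 1, the sample-level mean of FOSB at 3 hr was 0.19 (adjusted p 0.996).

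JUN passed the test at no time point and lay below 0 in 6 of 9 samples. Its log2 ratios were -0.15 and 0.28 in the 30 min samples, 0.034 and -0.51 in the 1 hr samples, -0.032 and -0.15 in the 2 hr samples and -0.73, -0.40 and 0.091 in the 3 hr samples. The samples of 1 time point lay on both sides of 0 except at 2 hr, where both were slightly below. The 3 hr mean of JUN was -0.35 (SE 0.19, fold 0.786, 95% limits -0.79 to 0.099, limma adjusted p 0.654), and the means at 30 min, 1 hr and 2 hr were 0.062, -0.24 and -0.093 (SE 0.23 each, adjusted p 0.989, 0.996 and 0.994). Averaged over times, JUN stood at -0.15 (SE 0.11, adjusted p 0.843), with 95% limits of -0.42 to 0.11. Few arrays weighed on the 3 hr value. In 3 hr replicate 1 the JUN ratio was -3.05 on 1 of 3 arrays with laser RNA in Cy5 and -0.10 on both others. On the array at -3.05 the signal was 290 in the laser channel, below its local background of 453, against 1316 in the control channel. The ratios of its duplicate spots differed by 1.00 on the log2 scale. With laser RNA in Cy3 the ratios of this sample were -0.018, 0.10 and -1.24. Without 3 hr replicate 1 the 3 hr mean of JUN was -0.15, and without 3 hr replicate 3 it was -0.57. With the channels read by file name it was -0.068 (limma adjusted p 0.892). Of all 371 probes, 27% were below 0 in at least 6 of 9 samples.

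JUNB passed the test at no time point either, and its ratios spread the most between samples. They were 0.19 and -0.81 in the 30 min samples, 0.11 and -0.75 in the 1 hr samples, -0.19 and -0.13 in the 2 hr samples and -1.18, 0.12 and -0.18 in the 3 hr samples. It was below 0 in 6 of 9 samples, and the samples of a time point lay on both sides of 0 except at 2 hr, where both were below, as for 33.7% of all probes. The JUNB means, in order of time, were -0.31, -0.32 and -0.16 (SE 0.37 each) and -0.41 (SE 0.30), with limma adjusted p of 0.989, 0.996, 0.994 and 0.654. The 95% limits at 3 hr ran between -1.12 and 0.29 on the log2 scale. Without 3 hr replicate 1 the 3 hr mean of JUNB was -0.029, and with the channels read by file name it was -1.22 (limma adjusted p 0.402). Averaged over times, JUNB stood at -0.30 (SE 0.18, adjusted p 0.843), with 95% limits of -0.72 to 0.11. Without the 4 samples of unsettled direction, the only 3 hr sample left was replicate 1, at -1.18. That fit gave FOSB, JUN and JUNB the same SE at 3 hr (0.43), so it did not use the spread of JUNB itself. The SD of JUNB over its 30 min samples was 0.71. A single sample cannot show how JUNB varied at 3 hr.

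Thus 0 of the 3 genes passed an adjusted p of 0.05 in limma at any of the 4 time points or on average, and 0 of the 371 probes did (0% each). At an unadjusted p under 0.05, 0.809% of probes passed for the 30 min samples, 1.35% for 1 hr, 1.62% for 2 hr, 2.16% for 3 hr and 3.77% on average, and FOSB, JUN and JUNB were not among them. The direction in the 4 unsettled samples bears on JUNB the most. With their Cy5 arrays left unturned, the average was 0.13 for FOSB, -0.18 for JUN and 0.38 for JUNB. With their Cy3 arrays turned instead, it was 0.23 for FOSB, 0.090 for JUN and -0.75 for JUNB. At 3 hr the same readings gave 0.30 and 0.21 for FOSB, -0.40 and -0.094 for JUN, and 0.70 and -1.49 for JUNB. FOSB thus kept its sign on average and at 3 hr under both readings. It turned at 1 hr under the first reading (-0.0043) and at 2 hr under the second (0.062). JUNB turned on average and at 3 hr under the first reading, and JUN turned on average under the second. The limma adjusted p at 3 hr was 0.233 or more for each gene.

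**Figure D2:**
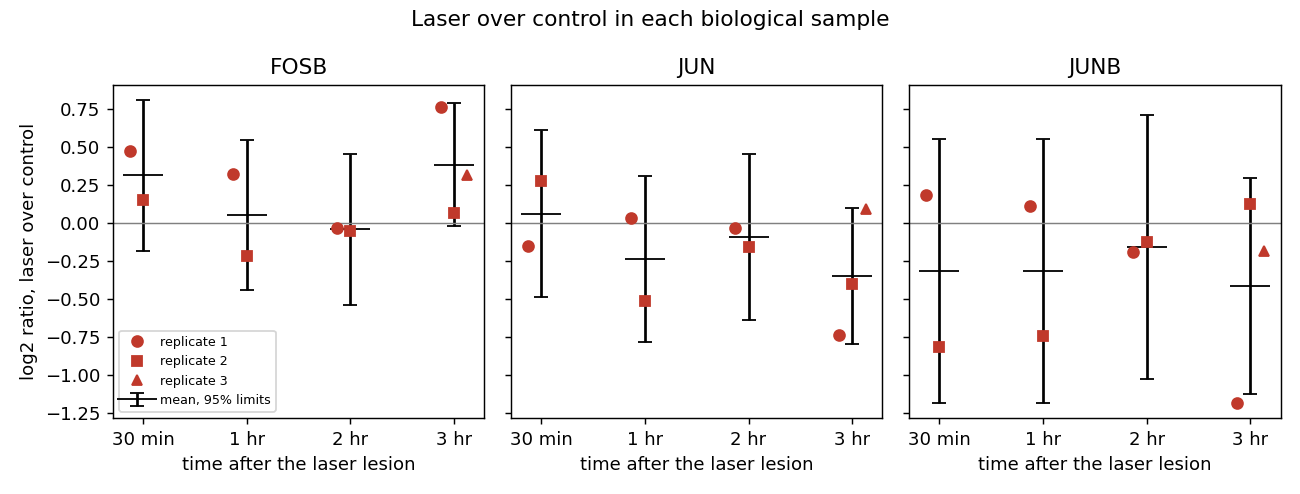
Log2 ratio of laser over control for FOSB, JUN and JUNB at each time after the lesion, with 1 symbol per biological sample and the limma mean with its 95% limits in black. The limits include 0 for each gene at each time, with FOSB at 3 hr the nearest to leaving it (-0.022 to 0.79).

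The ratios were also compared between time points. The 3 hr minus 2 hr difference of FOSB, at 0.77, 0.067 and 0.31 against -0.032 and -0.051, was 0.42 (SE 0.27, limma adjusted p 0.939). The samples of both times did not overlap, but the share of all probes that separated in this way was not counted. With the channels read by file name the 2 hr mean of FOSB was 0.19. The 3 hr minus 30 min difference was 0.069 for FOSB (SE 0.27, adjusted p 0.969), -0.41 for JUN (SE 0.30, adjusted p 0.955) and -0.10 for JUNB (SE 0.48, adjusted p 0.971). The 1 hr minus 30 min difference was -0.26 for FOSB, -0.30 for JUN and -0.0030 for JUNB (adjusted p 0.994, 0.994 and 0.996). The 2 hr minus 1 hr difference was -0.094 for FOSB, 0.15 for JUN and 0.16 for JUNB (adjusted p 0.996 each). The moderated F over the 4 times gave adjusted p of 0.998 for all 3 genes, and 0 of 371 probes passed the F or any of these 4 contrasts (0%). Dates in the image names form batches, and in 4 of them both dyes were present at 2 different times. Within these 4 batches the later time was higher in 2 of 4 for each of the 3 genes, with differences of -0.29 to 0.81 for FOSB, -0.62 to 0.11 for JUN and -1.56 to 0.87 for JUNB.

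JUNB was higher with laser RNA in Cy3 than with laser RNA in Cy5 in 9 of 9 samples. After adjustment the difference did not pass the test, which 9 samples do not let a single probe pass by itself. With laser RNA in Cy3, JUNB ratios were 0.59 and 0.017 in the 30 min samples, 0.22 and 1.36 in the 1 hr samples, -0.023 and 0.13 in the 2 hr samples and -0.57, 2.42 and 0.80 in the 3 hr samples. With laser RNA in Cy5, they were -0.22 and -1.64, then -0.0012 and -2.85, then -0.35 and -0.38, and in the 3 hr samples -1.80, -2.17 and -1.16. The JUNB ratio was above 0 on 11 of 18 arrays with laser RNA in Cy3 and on 1 of 15 with laser RNA in Cy5.

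The Cy5 over Cy3 part of a ratio is 50% of the difference between the orientations, and it does not depend on which RNA is called laser. For JUNB it was -0.86 ± 0.81 (SD, n = 9 samples), below 0 in 9 of 9 samples, and its mean was the lowest of the 371 probes. This property was chosen after its values had been seen. Of all 371 probes, 1.35% were below 0 in 9 of 9 samples. The two-sided exact sign-flip permutation test gave JUNB a p of 0.00391, the smallest that 9 samples allow, and 0.181 after adjustment over the 371 probes. A probe at that smallest p passes the adjustment only if many others share it, so the adjusted p does not decide. For FOSB the dye part was 0.11 ± 0.17 (exact permutation adjusted p 0.330) and for JUN 0.17 ± 0.32 (adjusted p 0.414). The orientations of JUNB lay furthest apart in 1 hr replicate 2 and 3 hr replicate 2, both of unsettled direction.

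Both dye orientations gave FOSB the same sign in 6 of 9 samples, and it was above 0 in each of those 6. Among them, 3 hr replicate 2 had FOSB signals at 0.19 to 0.40 of the local background in both channels of both arrays. In 30 min replicate 1 the array with laser RNA in Cy5 had them at 0.75 and 0.33 of it. With laser RNA in Cy3 its ratios were 0.17 and 0.20 in the 30 min samples, 0.16 and -0.55 in the 1 hr samples, -0.22 and -0.21 in the 2 hr samples and 0.77, 0.016 and 0.50 in the 3 hr samples. With laser RNA in Cy5 they were 0.79 and 0.098, then 0.48 and 0.11, then 0.16 and 0.11, and in the 3 hr samples 0.76, 0.12 and 0.13. FOSB was therefore above 0 with laser RNA in Cy5 in 9 of 9 samples, as were 0.809% of the 371 probes, and with laser RNA in Cy3 in 6 of 9. These counts were chosen after their values had been seen. In 30 min replicate 1, 1 hr replicate 2 and 3 hr replicate 2, the Cy5 value came from 1 array. On each of these arrays FOSB was below the local background in both channels.

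Among the 371 probes, 1 was above 0 in both orientations in at least 6 samples (0.27%), FOSB itself, a limit set at its own value after that value had been seen, and 5 were below 0 in both. This count depended on the direction given to the 4 unsettled samples, in readings added after seeing the data. With their Cy5 arrays left unturned FOSB was above 0 in both orientations in 4 samples and below 0 in 2, and 11 probes reached 6 samples above 0 and 13 below. With their Cy3 arrays turned instead FOSB was above 0 in 6, and 17 probes reached 6 above 0 and 29 below. Without the 4 samples FOSB was above 0 in both orientations in 4 of 5, a number that 8 probes reached above 0 and 16 below. Without the filter on dim probes, 13 of 1516 probes reached 6 samples above 0 and 11 below. The count for FOSB was 4 of 9 samples with median centring and 4 of 9 without background correction, where 0 of 371 probes reached 6 above 0. With the channels read by file name it was 6 of 9, and 2 probes reached that number above 0 and 8 below. JUN had the same sign in both orientations in 5 of 9 samples, above 0 in 2 and below 0 in 3. JUNB had it in 2 of 9, both below 0. Of all probes, 21% had the same sign in at least 6 samples, 41.2% in at least 5 and 10.5% in 2 or fewer.

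**Figure D3:**
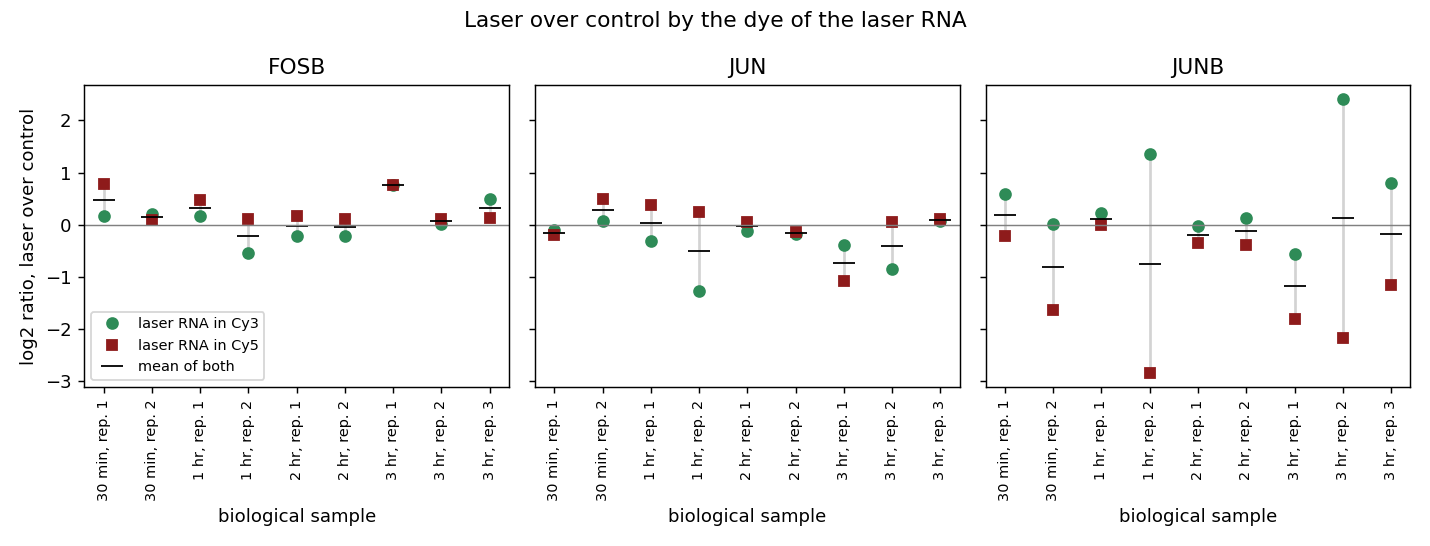
Log2 ratio of laser over control for FOSB, JUN and JUNB in each of the 9 biological samples, with laser RNA in Cy3 (green circles), laser RNA in Cy5 (dark red squares) and the mean of both (black bar). JUNB was higher with laser RNA in Cy3 in 9 of 9 samples, and FOSB was on the same side of 0 in both orientations in 6 of 9.

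In 3 hr replicate 1 the 3 genes parted most. The FOSB ratio there was above 0 on all 6 arrays and in both dyes, at 1.26, 0.15 and 0.90 with laser RNA in Cy3 and 0.44, 0.61 and 1.24 with laser RNA in Cy5. Of the 358 probes read on all 6 arrays, 4.75% were above 0 on each of them, and the sample ratio of FOSB was rank 5 from the top of 371. JUN, at -0.73, was rank 236 from the top and JUNB, at -1.18, rank 276. In this sample 67.4% of the probes past the filter were below 0, so many probes lay lower than JUN and JUNB. The FOSB signals on these arrays were 27883, 62509 and 52449 with laser RNA in Cy3 and 13567, 3042 and 9423 with laser RNA in Cy5, against control signals of 390, 3568, 2973, 1472, 794 and 1014 on the same arrays. No FOSB spot reached the highest reading of 65535, and 3 of its 132 spot readings exceeded 50000, the highest at 63078. These readings are means over a spot, so they do not show whether parts of a spot were at the limit.

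Relative to the median of its array, FOSB in 3 hr replicate 1 stood at 4.72 on the log2 scale in the laser channel (a fold of 26.4) and at 2.06 in the control channel (a fold of 4.18). In the other 8 samples it lay between 0.15 and 0.75 in the laser channel and between 0.20 and 0.82 in the control channel. FOSB was thus higher in both RNAs of this sample than in all others, and more so in lesioned epithelia. The summed signal of the 10 markers of supporting and sensory cells ran between 10723 and 190542 in the laser channel of its arrays and between 1234 and 18473 in the control channel, against 1974 to 19128 and 1777 to 28684 on the arrays of the other samples. For the 4 hair cell markers the laser sums were 485 to 8153 and the control sums 267 to 2483 on its arrays, against 515 to 7565 and 580 to 9368 elsewhere. The laser sums of the 5 stroma markers (10797 to 92545) and of the 6 other markers (15192 to 111431) were above those of every other sample, which reached 9373 and 10357. The part of brightness or of these cells in the FOSB value was not tested.

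The normalization set how far FOSB stood out in that sample, and turned the sign of JUNB. With each array only centred on its median in place of loess, FOSB in 3 hr replicate 1 was 2.61 rather than 0.77, above 0 on all 6 arrays, as were 31% of the 358 probes, and rank 3 of 371. JUNB there was 0.60 with median centring and -1.18 with loess, and above 0 on 4 and 0 of the 6 arrays. JUN was -1.15 with median centring and -0.73 with loess, and above 0 on 0 and 1 of the 6 arrays. With loess, 24% of the 358 probes were below 0 on all 6 arrays, as JUNB was. In the other 8 samples these normalizations differed by at most 0.13 for FOSB, 0.17 for JUN and 0.38 for JUNB.

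**Figure D4:**
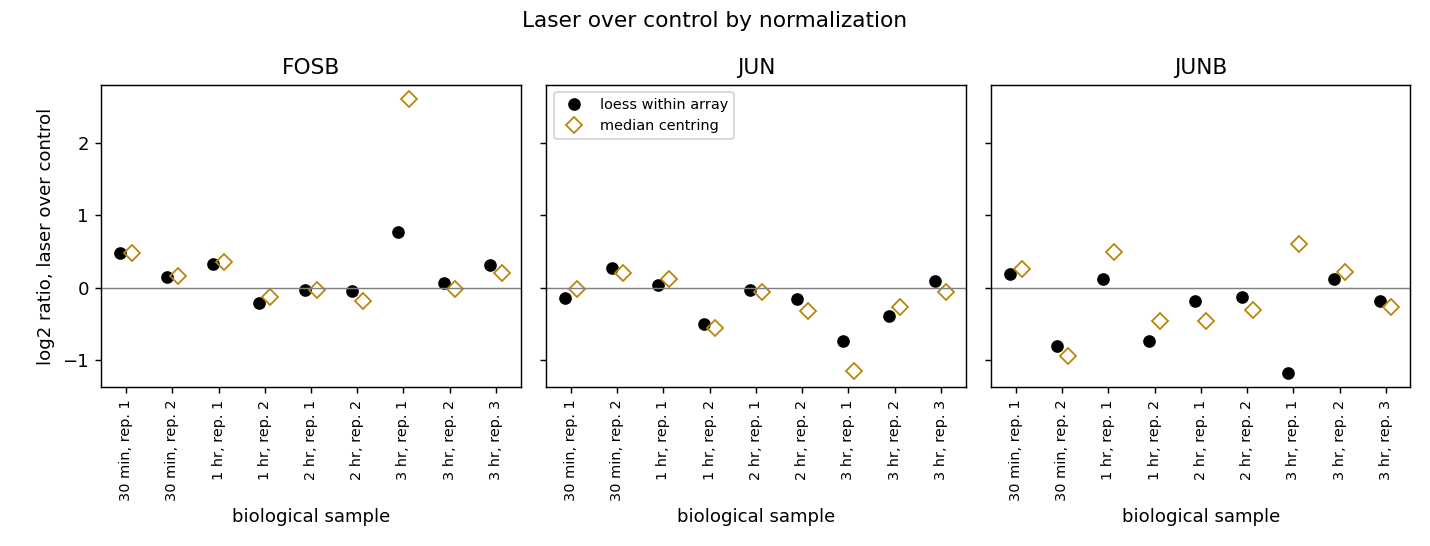
Log2 ratio of laser over control for FOSB, JUN and JUNB in each biological sample, after loess within the array (black circles) and after median centring (open diamonds). In 3 hr replicate 1, FOSB was 0.77 and 2.61 under these normalizations and JUNB -1.18 and 0.60.

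The 3 genes did not move together across the 9 samples. Pearson's r of their log2 ratios was -0.19 between FOSB and JUN, -0.18 between FOSB and JUNB, and 0.38 between JUN and JUNB. Without 3 hr replicate 1 these were 0.50, 0.54 and -0.12, so the sign of each turned on that sample. Samples share arrays, dyes and normalization across probes, and these values are a description.

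The probes most like each gene across the 9 samples were taken from the other 370. For FOSB they were ZNF254 (r = 0.83), LOC51043 (r = 0.83) and PRDM10 (r = 0.82), with 0.68, 0.68 and 0.78 without 3 hr replicate 1. For JUN they were FLJ12644 (r = 0.87), RNF4 (r = 0.86), a ubiquitin ligase for SUMO-modified proteins, and SOX2 (r = 0.86), a factor of supporting cells and their precursors in the inner ear, with 0.84, 0.75 and 0.76 without that sample. For JUNB they were KIAA0540 (r = 0.93), GLP (r = 0.92) and PREB (r = 0.90), with 0.87, 0.92 and 0.81. In likeness to FOSB, JUN ranked 170 and JUNB 169 of 370, and without 3 hr replicate 1 they ranked 53 and 42.

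Other leucine zipper proteins that pair with JUN or FOS proteins were mostly too dim to test. Of 18 such genes listed, 16 were on the array and 2 passed the filter, and 0 of the 2 passed the test in either direction at any time. ATF7, a partner of JUN at cAMP-response sites, averaged 0.20 over the time points (SE 0.10, limma adjusted p 0.843) and was above 0 in 6 of 9 samples. MAFG, a small MAF protein, averaged 0.022 (SE 0.065, adjusted p 0.917). FOS itself, in none of the lists and looked up after the other values, was above 1000 in either channel on 13 of 33 arrays and was not tested. Its sample ratios lay between -0.16 and 0.16.

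Of 17 regulators of AP1 genes or proteins listed, 17 were on the array and 4 passed the filter, and again 0 rose and 0 fell. EP300, a coactivator that AP1 recruits, averaged 0.18 (SE 0.076, unadjusted p 0.0476, limma adjusted p 0.843) and was above 0 in 8 of 9 samples. Of all 371 probes, 3.77% had an unadjusted p under 0.05 for this average, and 31% were above 0 in at least 6 of 9 samples. The share above 0 in 8 was not counted. CREB1, which binds the promoters of several FOS and JUN genes in mammals, averaged 0.023 (SE 0.079, adjusted p 0.917). MEF2B, of the family that binds the JUN promoter in mammals, averaged -0.43 (SE 0.32), and MAPK8IP1, a scaffold of the JNK pathway that phosphorylates JUN, averaged -0.19 (SE 0.13), both with adjusted p 0.843.

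Of 21 other immediate early genes listed, 18 were on the array and 5 passed the filter, with 0 rising and 0 falling. MYC averaged -0.10 (SE 0.081), CEBPB -0.33 (SE 0.23), COPEB, the older symbol of KLF6, -0.15 (SE 0.20), and ID1, an inhibitor of basic helix-loop-helix factors, 0.10 (SE 0.15), with adjusted p between 0.843 and 0.878. The median of the 5, in order of time, was -0.20, 0.0041, 0.073 and -0.43, against -0.041, 0.0047, 0.0011 and -0.058 over all 371 probes. At 30 min 0 of the 5 were above 0, against 42.6% of all probes. FOSB, at 0.31 at 30 min and 0.38 at 3 hr, had the opposite sign of these medians at both times, a difference that was not tested. Its 30 min mean was -0.034 without background correction. JUNB, at -0.31 and -0.41, had the sign of the medians at both times. JUN, at 0.062 and -0.35, had it at 3 hr only.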

How the data were processed

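Each deposited channel file holds, per the file headers, linear intensity of spots and of their local background as ImaGene 4.1 read them from 1 scan, with no background subtraction or normalization. The deposited series table holds log2 ratios that the authors took from these raw spot means. The authors' later lowess-normalized values were not used here, and the sources used here do not name the hybridizations that the authors left out, so all 33 arrays were kept. The genome build behind the human probes is not given in the sources used here.

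Background was corrected with normexp (offset 50) and ratios were normalized by loess within each array, with control and blank spots at weight 0. The dye of the laser RNA was read from the image name in the header, and all ratios were expressed as laser over control. Duplicate spots were averaged, then the arrays of each dye orientation, then both orientations of a biological sample. A probe was tested where 50% or more of the arrays had a signal over 1000 in the laser or control channel (371 of 1516). A limma 3.58.1 model (R 4.3.3) of the sample log2 ratios (n = 9) had a mean per time point, 5 residual degrees of freedom and Benjamini-Hochberg adjustment over the 371 probes. The number of arrays and of samples limits the precision. The limma steps were also run on simulated data with known changes.

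The 3 genes, the gene lists and the tests were chosen with earlier results of these data known. The members were always described. From each list, up to 4 probes past the filter with the largest moderated statistic for the average were to be named, and for each member the 3 probes with the highest correlation over the samples. Anything else named was chosen after its values were seen. Of the 3 symbols, JUN equalled a symbol in the chicken RefSeq gene table used for names, and FOSB and JUNB did not. No sequence or coordinate was used.

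The alternatives were another or no filter on dim probes, no background correction, median centring, the deposited ratios, other readings of the channels, samples or arrays left out, arrays as units, quality weights, each time point alone, the methods' t-test, run here on the sample means where the methods used selected hybridizations, and a replicate block.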

Additional observations from a re-analysis of the deposited data

Results flagged for a closer look

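The FOSB signal of 3 hr replicate 1 stood far from those of the other 8 samples. Over the array median it was 4.72 on the log2 scale in the laser channel, with the others between 0.15 and 0.75. In the control channel of the same sample it was 2.06, with the others between 0.20 and 0.82. Chance alone singles out about 1 in 20 groups of samples in this way. That sample stood apart over many probes, with an SD of the ratios of 1.04 against 0.16 to 0.40 in the other 8. How many other probes had an outlying signal there was not counted.

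FOSB lay above 0 in both samples at 30 min and below 0 in both at 2 hr, and the 2 hr minus 30 min difference was -0.36 on the log2 scale. That difference was not tested on its own. Of all 371 probes, 14.3% were above 0 in both samples at 30 min and 33.7% were below 0 in both at 2 hr. The share that did both was not counted. Both FOSB means turned sign under some other settings.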

How the results depend on the processing

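Of 362 values of FOSB, JUN and JUNB recomputed under 25 settings, 334 kept their sign and their side of the threshold, 25 turned sign and 3 came to pass the threshold. The 3 were FOSB at 3 hr with arrays as units, at 0.47 with the sample and at 0.47 with the image date as random block (limma adjusted p 0.0229 and 0.0289, the second setting chosen after seeing the data), and JUNB at 3 hr without the 4 unsettled samples, at -1.18. With arrays as units, neither block took up a laser effect particular to a sample, so arrays of 1 sample counted as replicates. Without the 4 unsettled samples, JUNB at 3 hr rested on 1 sample and on a spread that was not its own. Averaged over time points, FOSB stayed above 0 under each setting (0.074 to 0.34). Every adjusted p of the F and of the contrasts between time points missed the threshold, in all 134 values.

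Signs turned as follows. FOSB at 30 min was -0.034 without background correction and -0.045 with the deposited ratios, which follow the file names. With that table JUN was -0.061 at 30 min and 0.0015 at 2 hr, and JUNB 0.16 at 1 hr. Median centring gave JUNB 0.015 at 1 hr and 0.19 at 3 hr. Channels read by file name gave FOSB 0.19 at 2 hr. Cy5 arrays of the unsettled samples left unturned gave FOSB -0.0043 at 1 hr and JUNB 1.11, 0.032 and 0.70 at 1 hr, 2 hr and 3 hr and 0.38 on average. Turning the Cy3 arrays gave FOSB 0.062 at 2 hr, JUN 0.40 at 1 hr and 0.090 on average. Without the unsettled samples JUN was 0.034 and JUNB 0.11 at 1 hr.

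Probes called numbered 0 at each time, but 102 at 3 hr and 37 on average without the unsettled samples, 1 at 2 hr and 43 at 3 hr with arrays as units under either block, and 2 at 1 hr and 11 at 2 hr with each time point alone. By a one-sample t-test of the kind the methods name, but run on sample means rather than on hybridizations, unadjusted, 9, 13, 26 and 11 probes passed in order of time, and 0 after Benjamini-Hochberg adjustment. FOSB exceeded the local background plus 2 SD in both channels on 60.6% of arrays, against 33.3% above 1000. FOSB and JUN had no value with 1000 asked of both channels, since 47 probes without them passed.

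Leaving out 1 sample at a time gave -0.22 to 0.32 for FOSB at 1 hr, -0.15 to 0.28 for JUN at 30 min and -0.51 to 0.034 at 1 hr, and -0.81 to 0.19 for JUNB at 30 min and -0.75 to 0.11 at 1 hr, with no call. Same-numbered samples did not deviate together (correlations -0.38 to 0.25 over 12 pairs, 4 above 0.1). With a replicate block, JUN was 0.13 at 2 hr and 0.010 on average, and 0 probes were called. The quality weights stopped before full convergence. The cause of these changes was not tested. JUN exceeded that background limit in both channels on 54.5% of arrays, so low signal limits the ratios of FOSB and JUN on part of the arrays.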
